A study of Mus musculus with 6 samples.

Results

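The sites described here are the 7423 places that the authors listed as pSmad2 peaks in DMSO-treated cells, out of 17276 places in their 3 lists, with 5094 listed in Activin and 4759 in SB. The cells were E14 TG2A, a line of mouse embryonic stem (ES) cells. Each listed position marks the end of a peak, so a window was taken from 467 bp before the position up to it. Tags in the window were counted in the DMSO ChIP library and in the DMSO input library. The windows were then ranked by ChIP over input after scaling by the tags of each library. In ChIP-Seq, an antibody, here against phosphorylated Smad2 (pSmad2), pulls down DNA fragments whose ends are read as short tags, and input is chromatin that did not pass the antibody step.

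All cells were moved to medium with 20% Knockout Serum Replacement and no leukemia inhibitory factor, and all were held for 6 h in 10 µM SB-431542 (SB), which blocks the receptor kinases. They then received for 18 h the solvent DMSO at a dilution of 1 in 5000, 25 ng/ml Activin, or 10 µM SB again. DMSO thus stands for the endogenous signaling that is left after SB is taken away. There is 1 ChIP and 1 input library for each treatment and no replicate, so intervals and tests cover counting error only and compare libraries, not cultures.

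Nodal and Activin bind receptors that phosphorylate Smad2 and Smad3, and the phosphorylated proteins enter the nucleus with Smad4. Smad proteins bind short CAGA sequences weakly and are held at many targets by partners, among which FoxH1 is the best known in early embryos. Known targets include inhibitors of the pathway itself, such as the Lefty proteins.

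The reference sequence (NCBIM37, the same assembly as mm9, plus strand) around the highest DMSO pileup is shown for 8 of the 100 strongest windows, 161 bases each, because the results turn on what these windows hold. They were picked after the values were seen. Capitals mark each match to AATNNACA, a FoxH1-type motif, and to CAGAC, the stronger Smad motif, on either strand; a match on the minus strand appears here as its reverse complement. The cells are not of the reference strain, and their own sequence was not read. Each site bears the name of the gene that holds it or of the nearest start site of a protein-coding gene.
Lefty1 site, chr1:182863970-182864130: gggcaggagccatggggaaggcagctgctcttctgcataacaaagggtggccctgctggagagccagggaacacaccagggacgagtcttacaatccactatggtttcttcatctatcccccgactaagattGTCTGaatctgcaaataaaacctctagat
Cd83 site, chr13:44114126-44114286: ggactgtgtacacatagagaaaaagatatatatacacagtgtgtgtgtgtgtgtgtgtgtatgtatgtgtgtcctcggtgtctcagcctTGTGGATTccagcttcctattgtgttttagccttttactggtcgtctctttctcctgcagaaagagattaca
Pkdcc site, chr17:83566029-83566189: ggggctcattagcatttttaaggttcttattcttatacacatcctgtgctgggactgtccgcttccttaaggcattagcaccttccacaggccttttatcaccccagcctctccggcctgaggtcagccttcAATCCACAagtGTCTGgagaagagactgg
Dpp6 site, chr5:27030338-27030498: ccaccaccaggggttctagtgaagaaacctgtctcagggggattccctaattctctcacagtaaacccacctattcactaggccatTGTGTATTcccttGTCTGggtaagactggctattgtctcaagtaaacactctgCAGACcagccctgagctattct
Olfr1431 site, chr19:12273733-12273893: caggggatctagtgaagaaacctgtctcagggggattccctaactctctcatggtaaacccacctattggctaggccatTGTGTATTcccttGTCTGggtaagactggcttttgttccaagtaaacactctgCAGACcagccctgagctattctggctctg
Inhba site, chr13:16922299-16922459: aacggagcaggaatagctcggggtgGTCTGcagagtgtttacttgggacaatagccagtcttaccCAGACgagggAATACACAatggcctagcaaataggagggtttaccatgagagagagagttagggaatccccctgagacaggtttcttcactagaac
Epha7 site, chr4:29199236-29199396: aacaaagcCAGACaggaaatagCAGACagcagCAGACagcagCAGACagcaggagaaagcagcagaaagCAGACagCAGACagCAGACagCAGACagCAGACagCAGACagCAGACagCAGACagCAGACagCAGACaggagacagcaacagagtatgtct
Id4 site, chr13:48323160-48323320: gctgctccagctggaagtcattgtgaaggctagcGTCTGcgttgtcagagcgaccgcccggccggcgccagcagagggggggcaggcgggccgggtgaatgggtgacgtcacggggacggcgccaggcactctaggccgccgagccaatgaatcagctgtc
The Pkdcc sequence held 1 AATNNACA and 1 CAGAC match within 161 bases. At Lefty1 the shown bases held CAGAC and no AATNNACA, whose nearest match lay 221.5 bp from the pileup. The Dpp6, Olfr1431 and Inhba sequences, on chromosomes 5, 19 and 13, each held 1 AATNNACA and 2 CAGAC matches, and resembled one another over most of their length, Inhba on the opposite strand. The Epha7 sequence was an array of 14 CAGAC matches without AATNNACA.

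Over the 7423 windows the median number of DMSO ChIP tags was 15 and that of input tags 5. The ratio used for ranking adds 1 tag to both and scales by library. Its median was 3.5, its highest value 35.2 and its lowest 0.736. A ratio of at least 4 was reached by 2903 windows, and 16 windows lay below 1. These ratios describe places that were listed because they stood above input, so no test is made on them. Counted once per position and strand, the ChIP library held 9713869 tags and the input library 11913742, after 24.6% and 6.25% of their deposited tags had been set aside as repeats. The windows held 1.33% of the DMSO ChIP tags and 0.373% of the input tags.

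The 100 strongest windows had ratios from 14.7 to 35.2, with a median of 18.0. They had 16 ChIP tags in the median, hardly more than all windows, and 0 input tags in the median. Of the 100 windows, 60 had no input tag, against 2.82% of all windows. A high rank therefore meant a place with little input more often than a place with many ChIP tags. Among the 100, 56 windows had fewer than 20 ChIP tags, and all of these had 0 input tags. The other 44 windows had 20 to 123 ChIP tags. Rank 100 (Wdr92) and the next rank (Rapgef6) both had 11 ChIP and 0 input tags and the same ratio of 14.7, so the border passes through tied windows. Of the 100 windows, 26 stayed among the 100 strongest when the 3 input libraries were summed as the control.

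**Figure D1:**
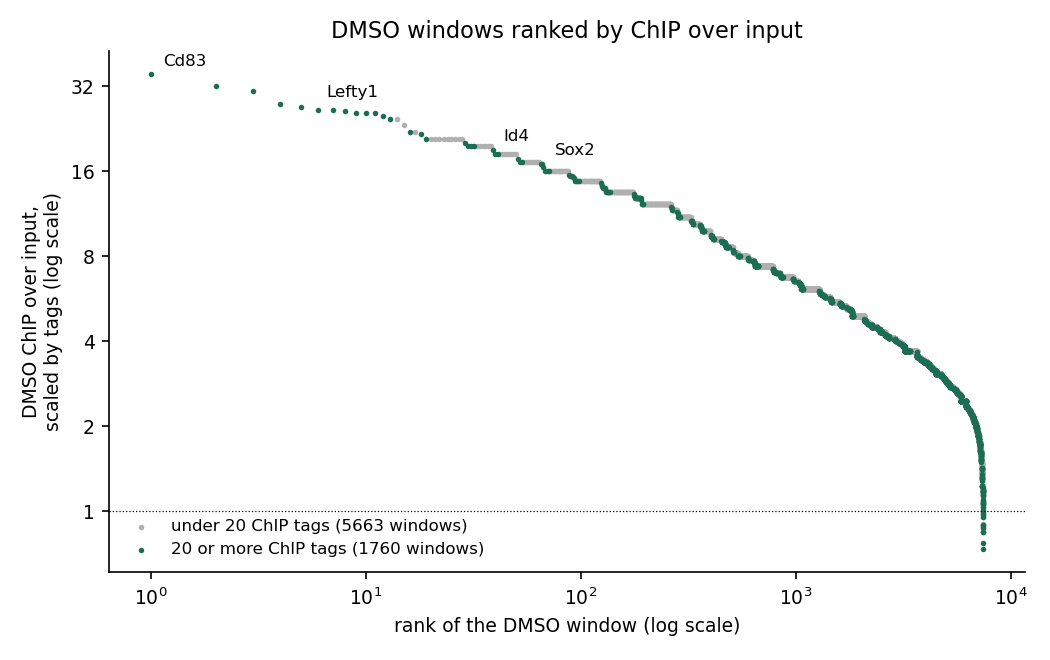
Rank of each DMSO window (x, log scale) against DMSO ChIP over input scaled by tags with 1 tag added to both (y, log scale). Points are the 7423 windows, green with 20 or more ChIP tags and grey with fewer; the grey steps are windows of few tags that share the same ratio, and the dotted line is a ratio of 1.

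The strongest site, at rank 1, lay at chr13:44113978-44114445, outside genes and 233652 bp downstream of the start of Cd83, a surface protein of dendritic cells. It held 85 ChIP and 2 input tags in DMSO, a plain ratio of 52.1 (95% interval 14.0 to 437). In Activin the ChIP was 20.9 times the input of 5 tags, and SB gave 11 ChIP and 4 input tags, 3.45 times input. The site was thus high in DMSO and Activin and much lower in SB.

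The Lefty1 site at rank 6, chr1:182863929-182864396, had its pileup 1103 bp upstream of the start of Lefty1, a secreted inhibitor of Nodal. DMSO gave 85 ChIP and 3 input tags (ratio 34.7, interval 11.5 to 172), Activin 124 and 6, and SB 13 and 5. The pileup lay 40811 bp from the start of Lefty2, a related inhibitor, so that the same window is the strongest within 50 kb of both genes. The DMSO ChIP count stood between those of the other treatments, nearer to Activin than to SB.

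The Dpp6 site at rank 2, chr5:27030205-27030672, lay 113479 bp upstream of Dpp6, which encodes a subunit of potassium channels. It had 25 ChIP and 0 input tags in DMSO, which is at least 7.71-fold over input (lower limit of the 95% interval). Activin gave 32 and 2 tags there and SB 5 and 3. The Inhba site at rank 12, chr13:16922086-16922553, is named by the nearest start, that of an Activin subunit gene 816071 bp away, and is far from any gene. Its tags were 40 ChIP and 1 input in DMSO, 42 and 1 in Activin, and 6 and 3 in SB. These sites also had few SB tags.

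Histone genes were frequent among the strongest sites. Hist1h2be (rank 3), Hist1h3c (rank 4), Hist1h2bc (rank 7), Hist1h4k (rank 9) and Hist2h2bb (rank 18) encode core histones made in S phase. The rank 3 pileup lay in an exon annotated to Hist1h2be but 35601 bp from its start. The nearest start to it was that of Hist1h4d, 3895 bp away. The others lay within 1 kb of their own starts. At Hist1h3c, chr13:23836905-23837372, there were 44 ChIP and 1 input tags in DMSO, 35 and 3 in Activin, and 57 and 1 in SB. At Hist2h2bb, chr3:96073805-96074272, there were 123 and 6 tags in DMSO, 89 and 4 in Activin, and 90 and 9 in SB. Unlike the sites above, these windows kept many ChIP tags in SB.

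The Slc2a3 site at rank 5 lay in an exon of Slc2a3, a glucose transporter gene, and 31347 bp from the start of Nanog, a pluripotency gene. Its ChIP tags were 21 in DMSO with 0 input tags, against 10 with 9 input tags in Activin and 17 with 3 in SB. The rank 8 site lay 3675 bp downstream of the start of Gapdh, a glycolysis gene, in an exon annotated to the neighbouring gene Iffo1. It had 105 ChIP and 4 input tags in DMSO, 76 and 9 in Activin, and 84 and 14 in SB. Both places were covered in all 3 ChIP libraries, but the plain ratio at Slc2a3 was 1.15 in Activin. The Slc2a3 window was only 1.26 times as dense in DMSO ChIP tags as the places 2 to 5 kb away. Its ranking ratio of 27.0 fell to 5.68 with the 3 input libraries summed and to 3.81 with the highest local input rate.

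At rank 16 the Epha7 site, 458916 bp downstream of the start of that ephrin receptor gene, had 35 ChIP and 1 input tags in DMSO, 41 and 1 in Activin, and 16 and 1 in SB. At rank 11 the Tlr2 site, 30329 bp upstream of that receptor gene of innate immunity, had 20 and 0 in DMSO, 21 and 1 in Activin, and 4 and 1 in SB. The Enc1 site at rank 19 lay within the long noncoding RNA gene Gm11019, with 33 and 1, 30 and 8, and 34 and 7 tags in the same order. Its ChIP tags were no denser than those 2 to 5 kb away, at 1.12-fold. The remaining named sites, Gps2 (rank 10), Gm10260 (14), 6530418L21Rik (15), Rpl39 (17) and Gadd45b (20), had 16 to 20 ChIP tags and 0 input tags in DMSO. In Activin their ChIP and input tags were 6 and 7, 16 and 3, 13 and 3, 12 and 2, and 13 and 4 in that order. In SB they were 12 and 9, 13 and 6, 7 and 8, 8 and 2, and 15 and 7. Their ranking ratios of 20.8 to 25.8 fell to between 4.15 (Gps2) and 12.1 (Rpl39) with the 3 input libraries summed. At the bottom of the ranking Pitrm1 (21 ChIP and 34 input tags) and Spag17 (44 and 74) had fewer ChIP than input tags after scaling, although the authors list both.

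**Figure D2:**
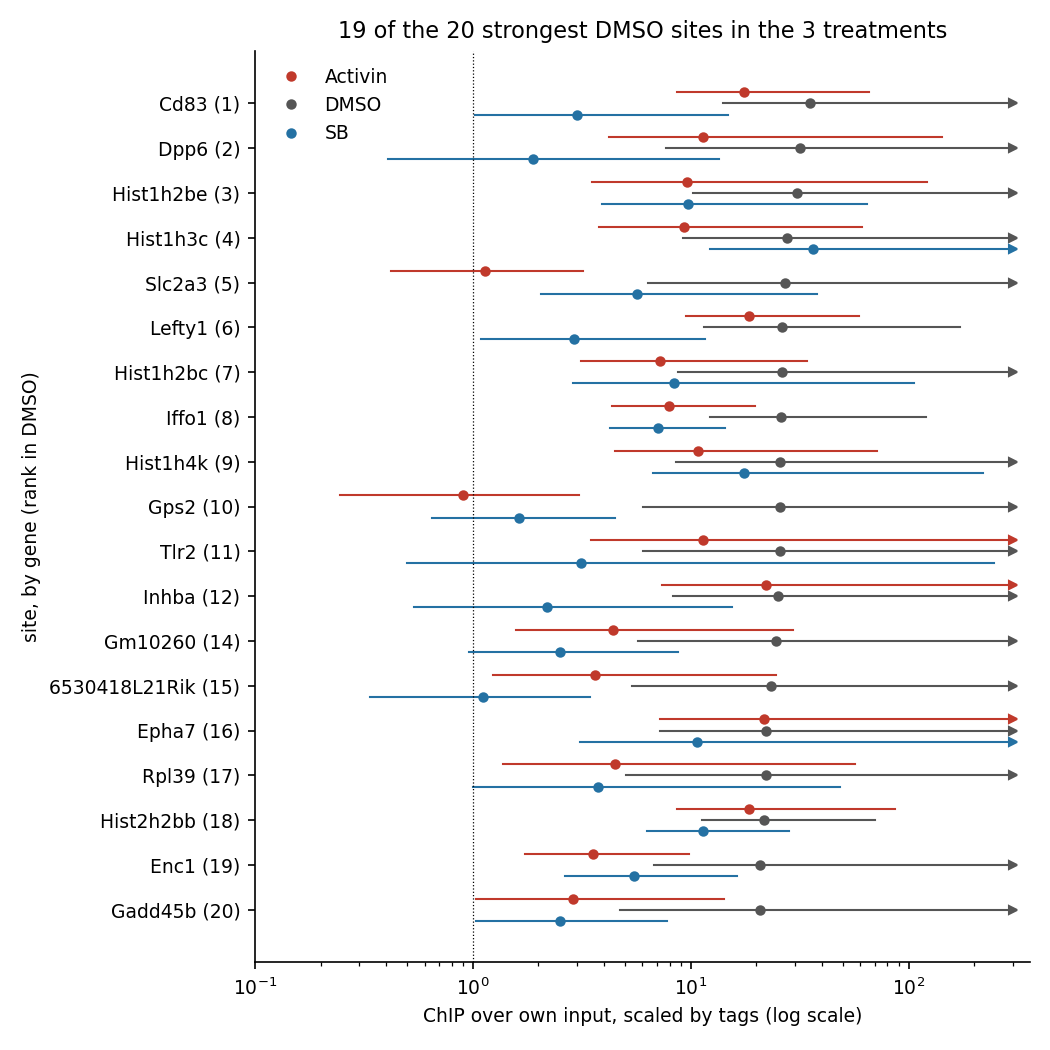
Of the 20 strongest DMSO sites, 19 (rows, gene name with rank) and ChIP over own input scaled by tags (x, log scale) in Activin (red), DMSO (grey) and SB (blue). Points are ratios with 1 tag added to both counts, lines are 95% intervals of the plain ratio, and arrowheads mark intervals that run past 300; at Cd83, Dpp6, Lefty1 and Inhba the SB point lies far left of the others.

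The other treatments were not used for the ranking and give an independent readout. By an exact binomial test of ChIP against own input, one-sided and adjusted over all 7423 windows, Activin stood above input in 1516 windows (20.4%) and SB in 1512 windows (20.4%). Of the 100 strongest windows, 49 (95% interval 38.9% to 59.2%) passed in Activin and 34 (24.8% to 44.2%) in SB, both shares above those background values. With a pseudocount of 0.5 in the ranking, which favours windows without input tags, 28 of the 100 passed in Activin and 12 in SB, the latter below the background. In the 5423 weakest windows the shares were 17.4% in Activin and 19.0% in SB. Both treatments passed in 28 of the 100 windows and neither in 45, against 715 and 5110 of all 7423 windows.

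Which windows passed went with their number of tags. Among the 44 windows with 20 or more DMSO tags, 38 passed in Activin and 30 in SB. Of all 1760 windows with so many tags, 837 passed in Activin and 845 in SB. Among the 56 windows with fewer tags, 11 passed in Activin and 4 in SB. The 20.4% over all windows is thus too low a background for the 44 and too high for the 56. A weak window may miss the threshold by its depth alone, so a missed test does not show that Smad2 was absent. The median ratio in these 56 windows was 2.07 in Activin and 1.78 in SB, against 8.44 and 5.87 in the 44. Over all windows it was 1.77 in Activin and 1.88 in SB, so the 56 stood close to the whole list.

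Activin and SB were then compared directly by the two-sided exact binomial test on ChIP tags, adjusted over all windows. Across all windows 172 (2.32%) were higher in Activin and 159 (2.14%) were higher in SB. Of the 100 strongest, 15 were higher in Activin and 3 in SB. By this exact test, among the 19 of the 20 strongest sites that are named here, Activin exceeded SB 7.07-fold at Lefty1 (interval 3.98 to 13.6, adjusted p = 2.2e-14) and 6.80-fold at Cd83 (3.64 to 14.1, 3.02e-11). It exceeded SB 5.18-fold at Inhba (2.19 to 14.9, exact binomial adjusted p = 0.000957) and 4.74-fold at Dpp6 (1.83 to 15.6, 0.00828). Hist1h3c was the only one of the 19 with a call the other way, Activin being 0.455 times SB (0.290 to 0.705, 0.00844).

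Further down the 100 strongest, further windows were higher in Activin, none of them with 20 or more DMSO tags lying within 1 kb of a start site. Pkdcc (rank 92), a gene of skeletal growth whose start lay 48514 bp away, had 61 ChIP tags in DMSO, 105 in Activin and 6 in SB. Nphs1 (rank 52), a kidney gene, had 69, 97 and 12 ChIP tags in the same order in a coding exon, where an antisense transcript is also annotated. Fam25c (rank 30) had 63, 78 and 13 ChIP tags 4537 bp upstream of its start, and an intron of the kinase gene Taok3 (rank 88) had 37, 57 and 4. These 4 sites were named after their values were seen. In each of them SB had the fewest ChIP tags.

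The windows higher in SB were Hist1h3c, Id4 (rank 40) and Ftl1 (rank 66). The Id4 site, chr13:48323035-48323502, lay 33556 bp upstream of Id4, an inhibitor of helix-loop-helix factors, where the long noncoding RNA gene A330033J07Rik is annotated. ChIP and input tags there were 29 and 1 in DMSO, 12 and 2 in Activin, and 96 and 9 in SB. Activin was 0.0926 times SB (0.0462 to 0.169, exact binomial adjusted p = 2.53e-20), so this basal site ran opposite to Lefty1. Ftl1, which encodes the ferritin light chain and was named after its values were seen, had 68, 59 and 77 ChIP tags in DMSO, Activin and SB.

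**Figure D3:**
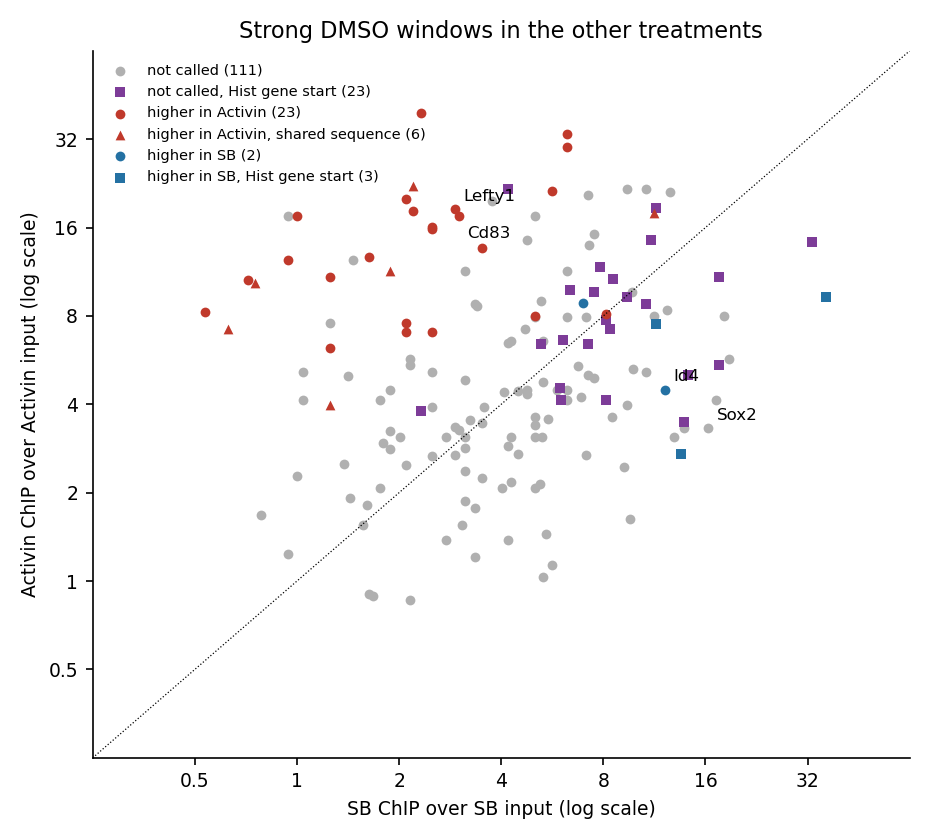
SB ChIP over SB input (x) against Activin ChIP over Activin input (y), both log scales with 1 tag added, for the 168 windows with 20 or more DMSO tags among the 500 strongest. Red points and triangles (29 windows) were higher in Activin, blue ones (5) higher in SB, grey points and purple squares were not called, and squares lie at histone gene starts; most of the red ones lie above the dotted line of equal ratios.

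The distance between the strands, which the ranking did not use, differed between these classes, as did the density over the surroundings, which shares the ChIP tags of the window with the ranking ratio. The 500 strongest windows included 168 with 20 or more DMSO tags, of which 29 were higher in Activin, 134 were not called and 5 were higher in SB. In the 29 windows minus-strand tags lay 143.5 bp (median) from plus-strand tags, and the window was 15.1 times as dense in ChIP tags as the places 2 to 5 kb away. In the 134 windows these medians were 75.5 bp and 3.8 times. Another listed DMSO window lay within 10 kb of 9 of the 29 windows and of 105 of the 134. No window of the 29 lay within 1 kb of a start site, against 40 of the 134. The windows higher in Activin were thus more often alone and stood further above their surroundings than those not called. In the 5 windows higher in SB the medians were 82.5 bp and 11.3 times, and 3 had another listed window within 10 kb. A high density over the surroundings was thus not particular to the windows higher in Activin. The 29 include Dpp6, Inhba, Vmn2r85, Vmn2r12, Olfr1431 and Ube2q1, whose windows share sequence and are not separate instances.

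**Figure D4:**
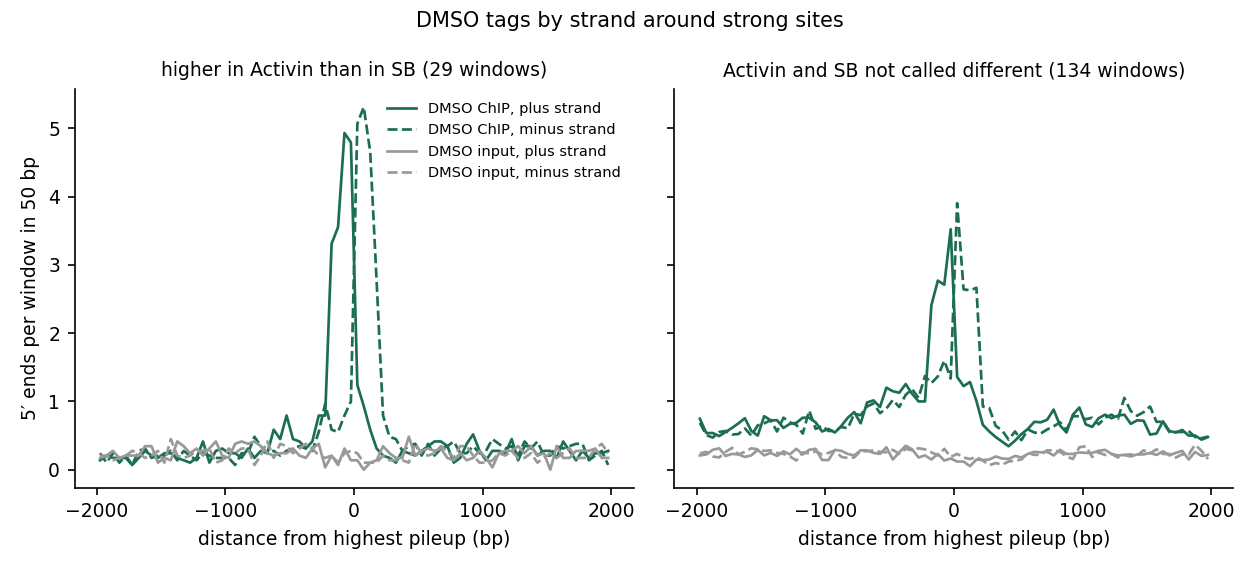
DMSO tag 5′ ends per window in 50 bp (y) by distance from the highest pileup (x, bp), plus strand solid and minus strand dashed, ChIP green and input grey, for 29 windows higher in Activin than in SB (left) and 134 not called (right). On the left the ChIP peaks at 5.31 and 4.93 ends per window fall to about 0.248 and 0.228 beyond 1 kb; on the right the peaks of 3.90 and 3.52 stand on 0.657 and 0.641 beyond 1 kb.

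The FoxH1-type motif AATNNACA went with the same split. It was present in 115 of the 172 windows higher in Activin (66.9%, interval 59.3% to 73.8%), in 1838 of 7092 windows not called (25.9%) and in 22 of 159 windows higher in SB (13.8%). In stretches of equal length 2 kb upstream it was present in 33.7%, 29.3% and 23.3%. Within 50 bp of the highest DMSO pileup it lay in 82 of the 172 windows (47.7%, interval 40% to 55.4%), in 449 of the 7092 (6.33%) and in 4 of the 159 (2.52%). The median distance from the pileup to the nearest match, where there was one, was 27.5 bp, 113.5 bp and 126.5 bp in these classes. The motif was therefore both more frequent and closer to the highest pileup in windows with more Activin than SB tags.

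Among the 44 windows with 20 or more tags in the first 100, all 12 that were higher in Activin held AATNNACA, in 9 of them within 50 bp of the pileup. Of the 12, 5 (Dpp6, Inhba, Vmn2r85, Vmn2r12 and Olfr1431) hold copies of 1 sequence and are not separate instances, and the other 7 had the motif within 50 bp in 5. The motif was present in 11 of the 29 that were not called and in 0 of the 3 that were higher in SB. The longer AATCCACA, present in 3.06% of all windows, occurred in 5 of the 12 and in 1 of the 29. CAGAC split the classes less, with 10 of the 12 and 23 of the 29. Over all 7423 windows CAGAC was present in 149 of the 172 windows higher in Activin and in 70.3% of those not called. Counts of a motif are a description of letters in the reference and not of bound sites.

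**Figure D5:**
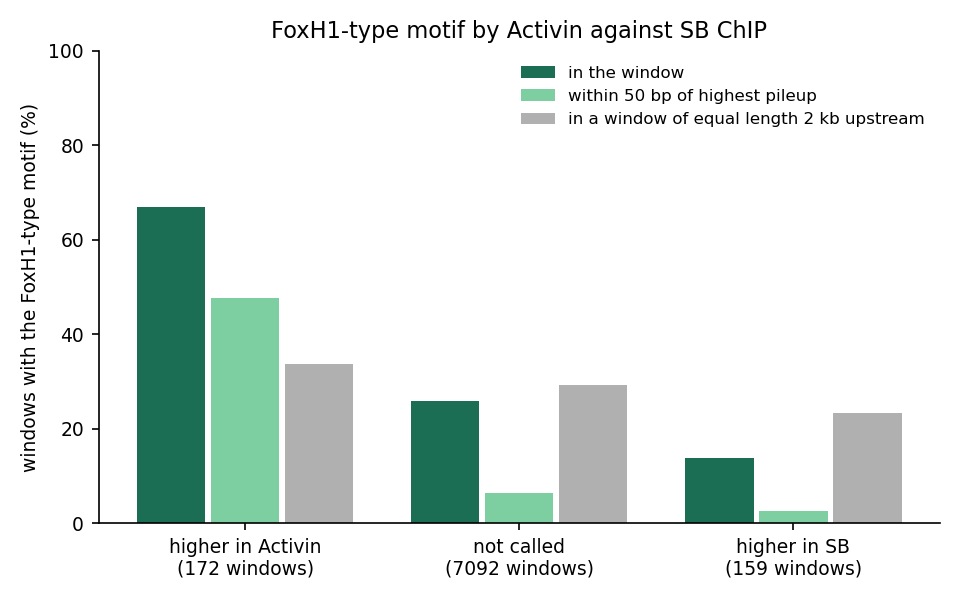
Percent of windows with AATNNACA on either strand (y) in the window, within 50 bp of the highest DMSO pileup, and in an equal stretch 2 kb upstream, for windows higher in Activin (172), not called (7092) and higher in SB (159). The share within 50 bp of the pileup is 47.7% in the first class, 6.33% in the second and 2.52% in the third.

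Without regard to the other treatments, the motif content of the strongest sites stood closer to that of all windows. AATNNACA was present in 44 of the 100 strongest (interval 34.1% to 54.3%) against 26.6% of all windows, and in 31 of the upstream stretches. CATTGT, bound by Sox2 and related factors, was present in 35 against 23.4%. In the Dpp6, Olfr1431 and Inhba sequences shown above, a CATTGT match overlaps the AATNNACA match. Of the 100 strongest, 7 windows share sequence with the Dpp6 window, so the counts of both motifs include instances that are not separate. CAGAC was present in 76 against 70.6%, CAGA in 100 against 99.5%, and the octamer ATGCAAAT, bound by Oct factors, in 4 against 2.75%. The GC-rich GGGCGG, bound by Sp1, was present in 10 against 16.3%. Median GC content was 44.6% in the 100 strongest and 47.6% in all windows. TGANTCA, the AP-1 motif, was present in 16 against 12.6%, and CACGTG, the E-box of Myc, in 6 against 7.75%. TTCNNNGAA, a Stat motif, was present in 10 against 12.4%. TTTCCCGC, an E2F motif, and the palindrome GTCTAGAC were each present in 1, against 1.01% and 0.983%. CCGGAAG, an Ets motif, was present in 4 against 4.41%.

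The likeness of the Dpp6, Olfr1431 and Inhba sequences led to a search for words of 16 bases shared with the Dpp6 window on either strand. At least 20 such words were found in 34 DMSO windows (0.458%) on 17 chromosomes, the Dpp6 window included. No repeat annotation was used here, and the search was made after the sequences were seen. Of the 34 windows, 7 were among the 100 strongest and 9 among the 500 strongest. They were near or in Dpp6 (rank 2), Inhba (12), Pax1 (26), Vmn2r85 (29), Rab18 (36), Vmn2r12 (91) and Olfr1431 (95), named by position alone.

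All 7 of these were higher in Activin than in SB, and of the 34 windows 21 (61.8%) were, against 2.04% of the other 7389 windows. The 34 windows share sequence and are not separate instances, so no interval is given. The Dpp6, Inhba and Olfr1431 windows, whose likeness led to the search, are among the 21. None of the 34 was higher in SB. Their median tags were 21 in the Activin ChIP, 16.5 in the DMSO ChIP and 2 in the SB ChIP. In the DMSO library the tags of the 34 windows ran from 9 at Fam110b, Muc19 and Tmem68 to 48 at Vmn2r85. AATNNACA was present in 32 of the 34 and CAGAC in 29, and none lay within 1 kb of a start site. Without these windows, 66 of the other 151 windows higher in Activin (43.7%, interval 35.7% to 52.0%) held AATNNACA within 50 bp of the pileup, against 6.23% of the other windows not called.

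The same words mark 651 places in the genome, of which 40 overlap a DMSO window and 611 do not. Over all 651 places, found by their sequence, the ratio of summed ChIP to input tags was 2.43 in DMSO (interval 2.26 to 2.62), 3.02 in Activin (2.80 to 3.26) and 1.2 in SB (1.08 to 1.34). At the 611 places left once those in a DMSO window were set aside, the summed DMSO tags were 1347 in the ChIP and 928 in the input library, a ratio of 1.78 (interval 1.64 to 1.94). Activin gave 1760 and 816 tags, a ratio of 2.23 (2.05 to 2.43), and SB 604 and 671, a ratio of 1.13 (1.01 to 1.26). In the 40 places within a DMSO window the ratio was 8.31 in DMSO, 10.4 in Activin and 1.95 in SB. Setting places aside by the DMSO list lowers DMSO against the other treatments, so no order is read from the 611. How the authors' alignment placed tags that match several copies is not given in the sources used here, so counts at single copies are uncertain.

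Histone genes were followed as a group that was named after the ranking was seen. Of 67 annotated Hist genes, 53 had a window within 1 kb of their start, 67 of the 7423 windows in all, 57 of them on chromosome 13. That chromosome held 4.19% of the windows and 19 of the 100 strongest. Of the 67 windows 11 were among the 100 strongest and 27 among the 500 strongest, and their median DMSO ratio was 7.01 with a range of 1.77 to 27.6. In Activin 55 passed above input and in SB 59, against 20.4% of all windows in each. None was higher in Activin than in SB and 8 were higher in SB, against 2.32% and 2.14% of all windows. Among the 1295 windows within 1 kb of any start site, 8 were higher in Activin and 99 in SB. The lean to SB was thus not particular to histone genes. The 67 windows had 30 DMSO ChIP tags in the median, against 15 in all windows. Of all 1760 windows with 20 or more tags, 837 passed in Activin and 845 in SB. The part played by the number of tags was not tested. The 11 strongest all passed in both treatments, with median ratios of 19.6 in DMSO, 7.75 in Activin and 11.3 in SB. Many histone genes are close copies of one another, so tags may be shared between them and the single values are uncertain.

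Among the 100 strongest windows fewer lay in introns than among all windows. Within 1 kb of a start site lay 17 (interval 10.2% to 25.8%) against 17.4% of all windows, in exons 14 against 13.5%, and in introns 25 (16.9% to 34.7%) against 36.0%. Over 10 kb from any gene lay 21 (13.5% to 30.3%) against 13.5%. Once windows at histone gene starts were left out, a choice made after seeing the ranking, 6 of the 100 strongest lay within 1 kb of a start. Over the whole list 1295 of 7423 windows lay there, and only 67 of these were at histone gene starts. With at least 20 tags required, 28 of the 100 strongest lay there, while of all 1760 windows with so many tags 522 did. Most of the strongest sites thus lay over 1 kb from a start, but so did most of all windows. The near-equal share held only with the histone gene starts counted.

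Among components of the pathway, the strongest window within 50 kb was that of the inhibitors Lefty1 and Lefty2, followed by those of the coreceptor gene Tdgf1 and the inhibitor Pmepa1. Of 22208 protein-coding genes, 40.4% had a DMSO window within 50 kb, 5.20% one of the 500 strongest and 1.38% one of the 100 strongest. Of 8 ligand genes 4 had a window and 0 had one of the 500 strongest, and of 6 receptor genes 2 had a window and 0 a strong one. Of 7 coreceptors and secreted inhibitors 4 had a window and 3 (Lefty1, Lefty2 and Tdgf1) a strong one. Lefty1 and Lefty2 share that window, so these counts are not independent. Of 10 intracellular inhibitors 8 had a window and 1 a strong one, and of 6 Smads and partners 4 and 0.

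Tdgf1, the Nodal coreceptor Cripto, had its strongest window at rank 190, 6815 bp downstream of a start, with 20 ChIP and 1 input tags in DMSO, 22 and 2 in Activin, and 14 and 2 in SB. Pmepa1, which keeps Smad2 and Smad3 from the receptor, had one at rank 282, 679 bp downstream of a start and with 9 CAGAC matches, with 36 and 3 tags in DMSO, 20 and 3 in Activin, and 11 and 6 in SB. Neither differed between Activin and SB by the test (exact binomial, ratios of 1.16 with interval 0.569 to 2.46 and 1.35 with interval 0.615 to 3.11). Among inhibitors, the strongest windows of Lefty1, Lefty2 and Smad7 were higher in Activin. The window of Smad7, the inhibitory Smad, which was named after its values were seen, had 56 DMSO, 73 Activin and 7 SB ChIP tags (Activin over SB 7.72, interval 3.57 to 19.9). The only window within 50 kb of Acvr1b, the type I Activin receptor gene, also named after its values were seen, lay by Grasp and was higher in SB, with 17, 3 and 14 tags.

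Of 13 mesendoderm regulators 5 had a window and 1 had one of the 500 strongest. Of 4 Id genes 3 had a window and Id4 a strong one. Of 17 pluripotency genes 13 had a window, a share (76.5%) near that of the housekeeping genes (75%), and 4 had one of the 500 strongest. Those were Nanog (the Slc2a3 site), Zfp42 at rank 41, Sox2 at rank 69 and Esrrb at rank 291. Zfp42 (Rex1) had 29 ChIP and 1 input tags in DMSO, 19 and 9 in Activin, and 15 and 4 in SB, and Sox2 had 25 and 1, 15 and 4, and 12 and 0. The Sox2 site lay in the long noncoding RNA gene Sox2ot. None of these 4 sites had a call between Activin and SB, while the strongest window of 1 other gene of the list was higher in Activin. There were 16 listed windows within 50 kb of Nanog and 16 within 50 kb of Zfp42, against 1 near Id4.

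Of 12 housekeeping genes 9 had windows, with 3 among the 500 strongest, namely Gapdh (the rank 8 site), Pgk1 (rank 64) and Ppia (rank 127). The Pgk1 window lay outside that gene, 16884 bp from its start and nearest to Taf9b. It had 13 ChIP and 0 input tags in DMSO, 6 and 5 in Activin, and 2 and 1 in SB. Of 11 trophectoderm genes 3 had a window and 0 a strong one. Of 14 genes of differentiated tissues 4 had a window, and the strong one at rank 474, within 50 kb of Myh6, lay next to Pabpn1. ChIP tags do not measure expression, so the cell type could not be checked by its markers.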

How the data were processed

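The deposited files are lists of aligned 35 bp tags for 6 libraries, and for each treatment a list of peak positions with the authors' count of tags per peak, made by the authors with MACS. The aligner is not given in the sources used here, and the genome build per the labels is mm9. The libraries held 9757735 to 13148559 tags. Tags were kept once per position and strand (7805150 to 11913742 per library), moved 100 bp inward and counted per window. Intervals are exact (Clopper-Pearson) at 95%. Tests were exact binomial tests on tag counts given the library totals, with p-values corrected for 7423 windows (Benjamini-Hochberg, 0.05). The one-sided test of ChIP against input was tested on simulated data, and the two-sided test of Activin against SB was not.

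Named sites are the 20 of highest ratio (windows under 1 kb apart taken as 1), the strongest window within 50 kb of each listed gene if among the first 500, the 2 lowest, and the windows just inside and outside the first 100. One of the 20 is not reported here. Members, lists and motifs were chosen with earlier results of these data known. Gene lists covered the pathway, early regulators, pluripotency, trophectoderm, differentiated tissues and housekeeping. Genes and start sites are from GENCODE on NCBIM37. Alternatives covered repeated tags, scaling, window, pseudocount, ranking, input and thresholds. Listed counts were met exactly in 2017 windows, and in 28.7% the window held under 75% of the listed tags, since wide peaks run past 467 bp. Scripts used Python 3.11.15, NumPy 2.4.6, pandas 2.3.3 and SciPy 1.17.1.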

Additional observations from a re-analysis of the deposited data

Results flagged for a closer look

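At 5 of the 19 named sites among the 20 strongest the Activin and SB ChIP libraries differed by the two-sided exact binomial test, adjusted over all windows. ChIP tags in Activin over SB, scaled by library, were 6.80 at Cd83, 4.74 at Dpp6 (32 and 5 tags), 7.07 at Lefty1 (124 and 13) and 5.18 at Inhba (42 and 6). At Hist1h3c the value was 0.455 (35 and 57 tags), the one site of the 5 with more tags in SB. Each value rests on 1 library per treatment.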

How the results depend on the processing

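No paired analysis was possible because each group has 1 library. Of 83 recomputed values, 33 stayed within 1.5 times (counts) or within the interval of the median, and 50 did not. For the 19 named sites among the 20 strongest, ratios under 8 alternatives ran from 2.23 to 62.5.

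The median ratio of all windows (3.5) was 2.82 scaled by all deposited tags, 2.98 in windows of 1000 bp, 3.68 and 2.55 with pseudocounts 0.5 and 5, 3.21 with the highest local input rate and 3.43 with at least 13 ChIP tags. That of the 100 strongest (18.0) was 27.9 with all tags counted, 14.5 with the other scaling, 13.5 in 1000 bp, 30.7 and 6.63 with the pseudocounts, 15.9 ranked by the lower limit, 9.50 with local input and, chosen after seeing the ranking, 13.8 with at least 20 tags. Windows with a ratio of at least 4 (2903) numbered 1822, 1820, 528 (pseudocount 5), 1625 and 1895 under all deposited tags, 1000 bp, pseudocount, local input and 13 tags.

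Of the 100 strongest, those within 1 kb of a start site (17) were 9 and 31 with pseudocounts 0.5 and 5, 30 ranked by the lower limit, 31 with local input, 5 within 500 bp, and, by choices made after seeing the ranking, 28 with at least 20 tags and 6 without histone starts. Windows with Activin above input (1516) were 976 with the other scaling, 2521 in 1000 bp, 2295 with 3 inputs summed and 421 at adjusted p under 0.001. For SB (1512) they were 994, 2651, 2615 and 383.

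Among the 100 strongest, Activin calls (49) were 81 with all tags, 28 and 92 with the pseudocounts, 81 by the lower limit, 76 with inputs summed, 91 with local input and 89 with at least 20 tags. SB calls (34) were 75, 12, 72, 59, 57, 66 and 66 under the same settings, 59 in 1000 bp and 20 at 0.001. The 12 SB calls with pseudocount 0.5 lie below the share of all windows (20.4%). The list itself changed: 26 of the 100 stayed with inputs summed, 27 in 1000 bp, 33 with local input, 46 and 71 with pseudocounts 5 and 0.5, 47 with all tags, 62 by the lower limit and 68 with a move of 50 bp. The cause of these changes was not tested. With few tags and 0 input tags, the order within the first 100 is not resolved at this depth.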
